A study of Homo sapiens with 2 samples.

Results

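Epithelial junction, desmosome and keratin genes were compared between 2 cultures of HCT116, an established human colorectal cancer cell line. The set is a list of 37 genes chosen by function, and a member was used where at least 1 probe set on the array is paired with that gene alone. This held for 34 of the 37 genes, out of 19775 genes with such a probe set, and CTNND1, F11R and ESRP2 are not analysed here. The members were described by junction type, as 4 adherens junction genes (3 measured), 13 tight junction genes (12 measured), 9 desmosome genes, 6 keratins and 5 epithelial regulators (4 measured).

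Sheets of epithelial cells are held together by 3 kinds of junction. Adherens junctions join neighbouring cells through E-cadherin, which is tied to actin by catenins. Tight junctions, built from claudins and occludin on a cytoplasmic plaque, seal the space between cells and set which ions and molecules pass. Desmosomes link the keratin filaments of one cell to those of the next through desmosomal cadherins, plakoglobin, plakophilins and desmoplakin, and are the main mechanical fasteners of the tissue. In colon cancer cells these genes serve as markers of the epithelial state, which is opposed by transcription factors of the SNAI and ZEB families.

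Total RNA of each culture was labelled with biotin and measured on 1 array. By their labels, HCT116-GFP is wild type, and HCT116-CPEB4 over-expresses the RNA-binding protein CPEB4 through a lentivirus. Both were grown in the same serum-containing RPMI medium, and neither clonality nor a vector in the HCT116-GFP cells is given in the sources used here. With 1 array a group there is no replicate, no test and no p-value, and every difference below compares these 2 arrays.

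Each probe set has 1 deposited linear intensity per array, in arbitrary units. Differences are log2 values, HCT116-CPEB4 minus HCT116-GFP, so that 1 means 2-fold. A probe set was kept where its higher intensity reached 60.8, the median over both arrays (called the dim filter), and a gene took its brightest kept probe set. Intensities of different probe sets do not give relative transcript levels, so only the same probe set is compared between arrays. All 34 measured members passed, as did 13704 genes in all.

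CPEB4 itself read 731 in HCT116-GFP and 628 in the other sample (−0.22), with −0.44 and −0.08 at its other kept probe sets. The transgene is therefore not seen in these probe sets, a probe set outside the introduced sequence would not show it, and the second sample is called the array labelled HCT116-CPEB4. Every direction below rests on that label. The 3′ to 5′ signal ratio of the ACTB control, which grows as RNA degrades, was 8.23 for HCT116-GFP and 10.3 for the array labelled HCT116-CPEB4, and that of GAPDH was 0.989 and 1.04. What part these ratios have in any difference was not tested.

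The defining epithelial markers were bright on both arrays. EPCAM, the epithelial adhesion molecule used to identify carcinoma cells, read 20994 and 20717, and the simple-epithelium keratins KRT18 and KRT19 read 27353 and 28546 on the first array and 28606 and 28311 on the second. Of 13 mesenchymal regulators and markers, 9 passed the dim filter, among them VIM (503 and 431), FN1 (677 and 586) and TWIST1 (333 and 273). CDH2, ZEB2, TWIST2 and CDH11 stayed under it at every probe set. Counted at the brightest probe set of each gene, 2 of 9 colon epithelium markers reached the filter in HCT116-GFP and 4 in the other sample. The summed intensities were 481 and 631. VIL1 read 32.2 and 77.0 at that probe set, but 80.7 and 1.66 at a dimmer one. Counted the same way, defining markers of fibroblasts (1 and 2 of 6), blood cells (1 and 1 of 5), endothelium (1 and 1 of 4) and squamous epithelium (1 and 0 of 4) were mostly under the filter. Their sums were 1108 and 1499, 392 and 325, 232 and 131, and 146 and 121. Most of the fibroblast sum came from COL1A1 (949 and 1292), whose other kept probe sets differed by −0.31, 0.63 and −3.05. A sum compares the 2 arrays within a list, not 1 list with another.

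As a set, the junction and keratin genes differed little between the arrays. The median difference was 0.03 over 34 genes, beside 0.00 over all genes, and 17 members lay above 0 and 17 below (50.1% and 49.9% of all genes). One member, CLDN2, was higher by 2-fold or more on the array labelled HCT116-CPEB4 (2.94% of members, against 3.55% of all genes), and 0 members were lower by 2-fold or more (3.85% of all genes). At the smaller size of 0.5 (1.41-fold), 3 members were higher, CLDN2, CGN and KRT80 (8.82% against 10.1%), and 1 was lower, DSP (2.94% against 10.3%). Both shares lie near or under the background, so these counts are not a result about the set. Many genes behind the background are dim and noisy. Among the 8463 genes that reached 377, the 75th percentile, 29 were members. Of those, CGN was higher and DSP lower by 0.5 or more (3.45% each), beside 4.32% and 3.66% of all genes that bright.

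**Figure D1:**
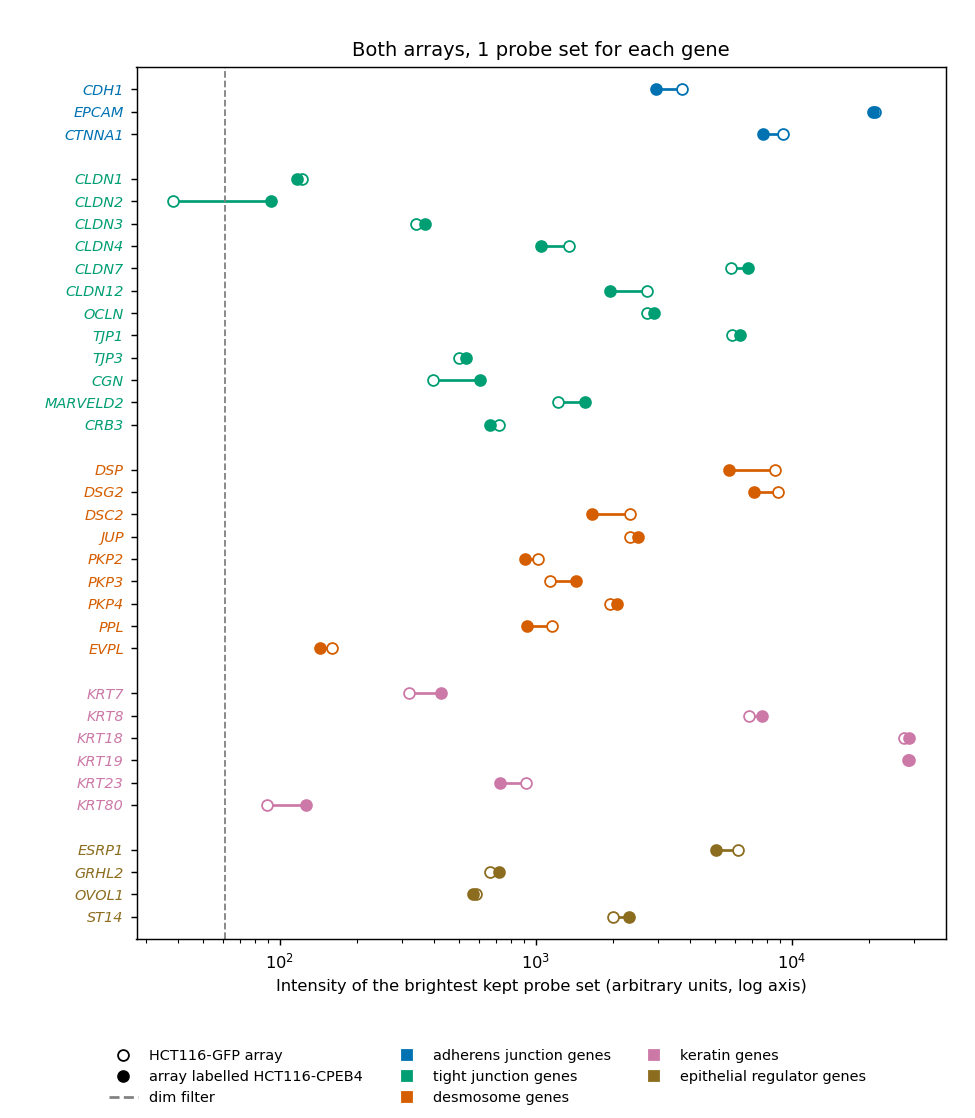
Intensity (arbitrary units, log axis) of the brightest kept probe set of each of the 34 measured members, with open circles for the HCT116-GFP array and filled circles for the array labelled HCT116-CPEB4, coloured by junction type; the dashed line is the dim filter at 60.8. Most pairs of circles nearly touch, CLDN2 alone crosses the filter, and the DSP, DSG2 and DSC2 pairs run to lower values on the array labelled HCT116-CPEB4. Each gene has 1 array a group, so there are no error bars.

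Variation between cultures or arrays could not be judged, because neither group has a replicate. Only the agreement of probe sets within a gene could be judged, from genes with several probe sets. Among 6520 such genes, the median gap between the differences of the 2 brightest kept probe sets was 0.27, and for the 15 such members it was 0.34. The kept probe sets had one sign for 9 of these 15 members and both signs for 6, which are CTNNA1, CLDN3, OCLN, DSC2, KRT19 and ESRP1. The difference of 24 of the 34 members was no larger than 0.34. That gap comes from probe sets on the same arrays, and does not give the spread between cultures or arrays.

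**Figure D2:**
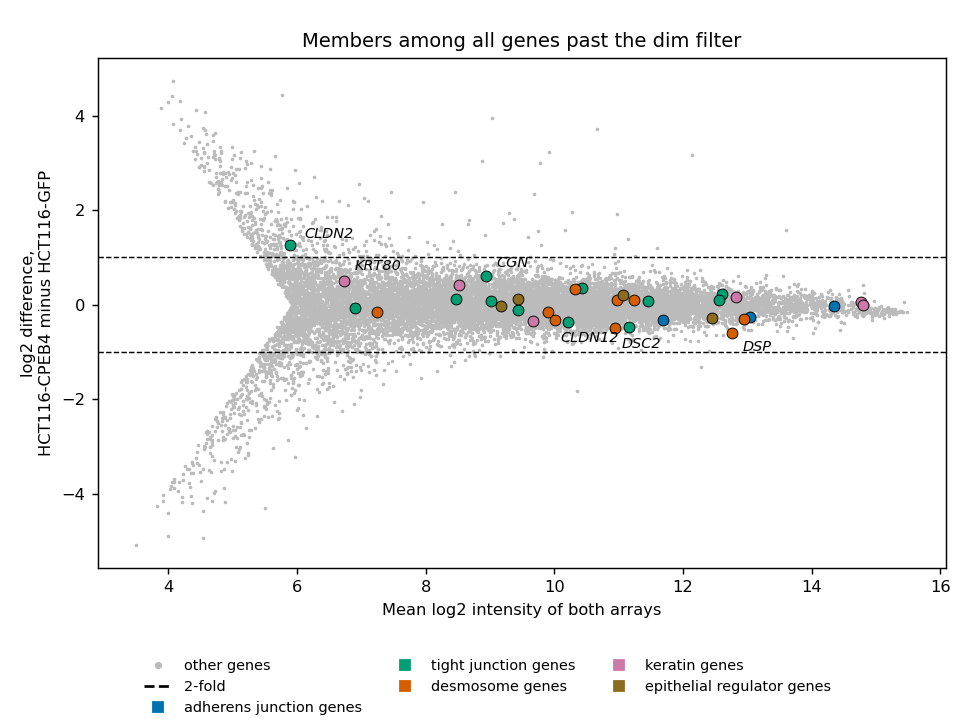
The log2 difference (HCT116-CPEB4 minus HCT116-GFP) against the mean log2 intensity of both arrays, with 13704 genes past the dim filter in grey and the 34 members as coloured points; dashed lines mark 2-fold. The spread widens towards dim genes, where the open wedge is made by the filter, and CLDN2 at 1.26 lies in that dim range while the other members stay within 2-fold.

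Desmosome genes held the member with the lowest difference and ran in both directions. Of 9 genes, 6 lay below 0 and 3 above (49.9% and 50.1% of all genes), with a median of −0.16. Desmoplakin, encoded by DSP, anchors keratin filaments to the desmosomal plaque. Its only probe set read 8555 for HCT116-GFP and 5647 for the array labelled HCT116-CPEB4, a difference of −0.60 (1.52-fold) at percentile 7.96 of all genes. Of the 8 alternative settings only 3 could move it (both normalizations and the pseudocount), and it stayed between −0.60 and −0.58. DSP was the 1 member lower by 0.5 or more.

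Both desmosomal cadherins of the set, which bridge the gap between cells, were lower at their brightest probe sets, while DSC3, a desmocollin of the further list, read 264 and 285 (0.11). The desmocollin DSC2 read 2321 and 1651 (−0.49). Its other probe sets read 218 and 167 (−0.38), 199 and 171 (−0.22) and, in the other direction, 132 and 157 (0.24), so that the mean over its probe sets was −0.21. The desmoglein DSG2 was lower at both probe sets, at 8799 and 7115 (−0.31) and at 793 and 564 (−0.49). Among the plakins, PPL, periplakin, which runs from desmosomes to the cell cortex, read 1159 and 920 (−0.33), and its partner envoplakin, EVPL, read 159 and 143 (−0.16).

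The armadillo-repeat proteins listed with the desmosome genes were split. Plakoglobin, encoded by JUP and shared with adherens junctions, read 2330 and 2505 (0.10). The plakophilins PKP2 and PKP3 link cadherins to desmoplakin. PKP3 read 1138 and 1435 (0.33), and PKP2 read 1014 and 906 (−0.16). PKP4, placed here by the list, was higher at each of its 3 kept probe sets (0.10, 0.31 and 0.43). Within the set, the 2 cadherins and 3 plakins thus read lower at their brightest probe sets. Of the 4 armadillo proteins listed, 3 read higher, with PKP4 counted among them. The junction types were set by list, but this split by protein class was not. Only DSP and DSC2 among these genes differed by more than 0.34, the median probe set gap of members. DSC2 also had a kept probe set in the other direction (0.24).

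The promoters of DSP, DSG2 and DSC2, the desmoplakin and the 2 cadherins of the set, are shown. They were picked because they read lower together, and other members, such as CLDN12 and CLDN4, were lower than DSG2. Each is the RefSeq window of GRCh38.p14 from 250 bases before to 50 bases after the annotated start of the gene, on the gene's own strand: chr6:7541421-7541720 (plus strand), chr18:31497927-31498226 (plus) and chr18:31102372-31102671 (minus). Capitals mark CAGGTG or its reverse complement CACCTG, the E-box to which the repressors SNAI1 and ZEB1 are known to bind.

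DSP: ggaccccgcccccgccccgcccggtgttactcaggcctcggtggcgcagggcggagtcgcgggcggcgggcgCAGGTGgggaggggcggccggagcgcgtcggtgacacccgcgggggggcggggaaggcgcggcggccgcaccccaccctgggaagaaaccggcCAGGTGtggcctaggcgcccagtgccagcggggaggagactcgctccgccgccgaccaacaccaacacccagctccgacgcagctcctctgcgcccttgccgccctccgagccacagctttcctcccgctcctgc
DSG2: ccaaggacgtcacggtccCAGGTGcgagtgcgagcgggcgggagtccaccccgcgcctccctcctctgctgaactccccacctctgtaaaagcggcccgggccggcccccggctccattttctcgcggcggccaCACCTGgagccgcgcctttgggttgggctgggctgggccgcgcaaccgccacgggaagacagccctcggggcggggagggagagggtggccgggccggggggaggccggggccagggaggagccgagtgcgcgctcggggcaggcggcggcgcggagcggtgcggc
DSC2: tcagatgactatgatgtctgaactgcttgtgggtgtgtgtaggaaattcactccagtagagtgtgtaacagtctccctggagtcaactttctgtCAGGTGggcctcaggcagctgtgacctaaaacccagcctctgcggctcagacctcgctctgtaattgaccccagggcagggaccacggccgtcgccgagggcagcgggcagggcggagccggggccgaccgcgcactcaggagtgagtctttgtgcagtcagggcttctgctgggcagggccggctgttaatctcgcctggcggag

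The E-box letters start 178 and 85 bases before the start in DSP, 232 and 116 bases before it in DSG2, and 156 bases before it in DSC2. Promoter windows were found for 19 of the 37 members, and 7 of the 19 (36.8%) hold the letters on either strand. Over all 27305 promoter windows the share was 20.6%. The 4 others are CLDN3, OCLN, TJP1 and CRB3, with differences of 0.12, 0.08, 0.10 and −0.12. Lower members without these letters in their windows include CLDN12 (−0.48), CLDN4 (−0.37) and CTNNA1 (−0.25). The windows of the desmosome genes JUP (0.10) and PKP4 (0.10) hold none of these letters either. Any link between the letters and the differences was not tested. Member windows were richer in G and C (median 65.7% against 58.3%), 15 of the 19 held the GC box GGGCGG (78.9% against 44.6%), and none held TATAAA (11.95% of all windows). No matches of these motifs shared bases in the 19 windows. A match of letters is a description of the window, and no binding was measured.

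Tight junction genes lay above 0 in 8 of 12 cases (50.1% of all genes), with a median of 0.09. The kept probe sets of CLDN3 and OCLN, counted among those above 0, had both signs. The largest difference of the set was that of CLDN2, the claudin that forms pores for small cations in leaky epithelia. It read 38.3 in HCT116-GFP and 92.01 in the other sample (1.26, 2.40-fold, percentile 97.3). Its only probe set lay under the dim filter in HCT116-GFP and above it in the other sample, which fixed its sign. With 32 units added to each intensity the difference was 0.82.

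Cingulin, encoded by CGN, is a plaque protein that ties tight junctions to the cytoskeleton and to regulators of small GTPases. It was higher at both probe sets, at 395 and 602 (0.61, percentile 92.3) and at 63.1 and 129 (1.03), with both arrays above the filter at each. CGN differed by 0.57 to 0.82 across its 7 alternative settings, and it was the 1 member higher by 0.5 or more with both arrays above 377. The letters of a Grainyhead-type site, AACCNGTT in either orientation, occur in 1 of the 19 member windows (5.26%, against 1.73% of all windows), which is that of CGN. GRHL2, a member of the Grainyhead-like family of epithelial transcription factors, read 661 and 718 (0.12). Of the same family, GRHL1 differed by −0.04 and GRHL3 by −4.94, with its second value under the filter. Any link between these letters and the difference of CGN was not tested. The CGN window (chr1:151511137-151511436, plus strand, GRCh38.p14) is printed because it holds the match, which starts 27 bases before the start and is in capitals.

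CGN: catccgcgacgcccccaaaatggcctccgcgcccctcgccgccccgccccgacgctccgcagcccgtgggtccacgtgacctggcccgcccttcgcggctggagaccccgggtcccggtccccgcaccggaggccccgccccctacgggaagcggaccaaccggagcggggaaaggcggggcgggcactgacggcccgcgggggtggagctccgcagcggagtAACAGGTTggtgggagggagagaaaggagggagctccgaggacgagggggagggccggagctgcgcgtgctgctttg

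The remaining claudins differed in direction from gene to gene. CLDN7, a claudin of the lateral membrane that associates with EPCAM, read 5793 and 6748 (0.22). CLDN12 read 2708 and 1948 (−0.48), and CLDN4, a sealing claudin of the colon, read 1347 and 1045 (−0.37). CLDN1 was similar on both arrays (122 and 116, −0.07). The 2 kept probe sets of CLDN3 went opposite ways, at 340 and 370 (0.12) and at 169 and 77.3 (−1.13), which leaves CLDN3 without a clear direction.

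Other membrane and plaque proteins of the tight junction differed by small amounts. Tricellulin, encoded by MARVELD2 and found where 3 cells meet, read 1216 and 1547 (0.35) and 221 and 225 (0.03). Occludin, its relative, read 2720 and 2880 (0.08) at the brightest OCLN probe set. Its others read 369 and 398 (0.11), 320 and 357 (0.16) and, in the other direction, 243 and 189 (−0.36). The zonula occludens scaffolds TJP1 and TJP3 bind claudins on the inner side of the membrane. TJP1 read 5806 and 6239 (0.10) and 284 and 453 (0.67), and TJP3 read 501 and 531 (0.08) and 98.2 and 175 (0.83). CRB3, a Crumbs protein that sets up the apical domain, read 720 and 662 (−0.12). At the dimmer probe sets of TJP1, TJP3 and CGN the difference was larger than at the brighter ones.

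All 3 measured genes listed for adherens junctions lay at or below 0, with a median of −0.25, which is the value of CTNNA1. E-cadherin, encoded by CDH1, read 3709 in HCT116-GFP and 2954 in the other sample (−0.33, 1.26-fold), and its second probe set was under the dim filter on both arrays (18.8 and 22.8). EPCAM, placed here by the list, differed by −0.02, and by 0.04 and 0.03 after quantile normalization and loess. Alpha-catenin, encoded by CTNNA1, links E-cadherin and beta-catenin to actin. Its 3 brightest probe sets read 9178 and 7719 (−0.25), 8275 and 7892 (−0.07) and 2792 and 2530 (−0.14). The other two, dimmer, read 108 and 172 (0.66) and 16.3 and 72.5 (2.15). The mean over all CTNNA1 probe sets was 0.47, so its direction depends on how they are combined.

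**Figure D3:**
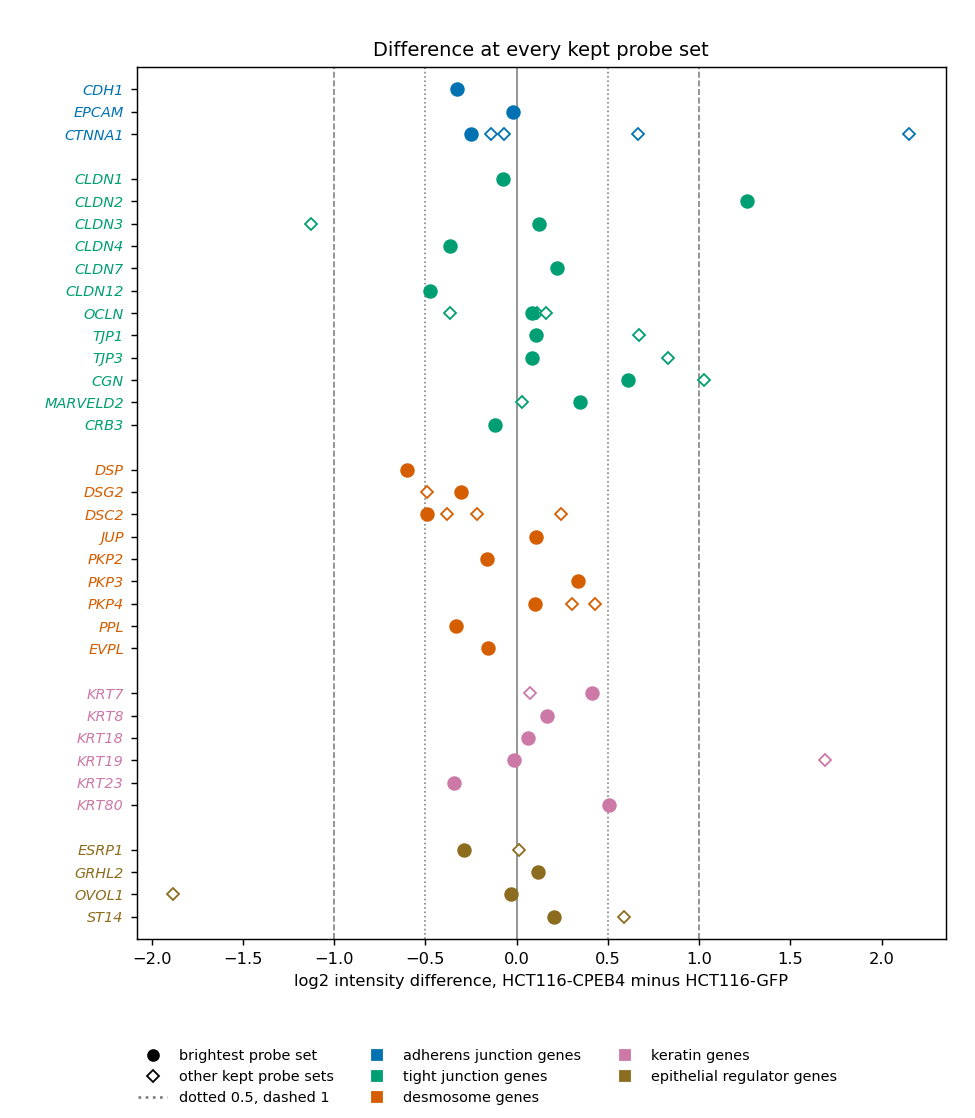
The log2 difference (HCT116-CPEB4 minus HCT116-GFP) at every kept probe set of the 34 members, with filled circles for the brightest probe set of a gene and open diamonds for the others; dotted lines mark 0.5 and dashed lines 1 in either direction. DSG2 has both probe sets below 0 and CGN both above it, whereas CTNNA1 runs from −0.25 to 2.15 and OVOL1 from −1.88 to −0.03.

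Keratins, the intermediate filaments that desmosomes anchor, lay above 0 in 4 of 6 cases (50.1% of all genes), with a median of 0.12. KRT8 and KRT18, which pair to form the filaments of simple epithelia, read 6802 and 7640 (0.17) and 27353 and 28606 (0.06). Both have processed pseudogenes of closely similar sequence, and their probe sets are of a type marked for possible cross-hybridisation. KRT19, the small keratin of ducts and gut, read 28546 and 28311 (−0.01, and 0.07 and 0.04 after quantile normalization and loess). Its second probe set read 24.0 and 77.4 (1.69). The simple-epithelium keratins were thus close to equal on both arrays at their bright probe sets.

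The other keratins differed more, and in both directions. KRT80, a type II keratin found near desmosomes, read 88.7 and 126 (0.50). KRT7, which marks ductal rather than colonic epithelium, read 319 and 424 (0.41), with 61.7 and 64.8 (0.07) at its other kept probe set. KRT23, a type I keratin, read 916 and 722 (−0.34). KRT80 was at 0.49 after quantile normalization and after loess, and thus just under the 0.5 mark.

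The epithelial regulators had differences from −0.29 to 0.20 at the brightest probe sets. ESRP1, which directs epithelial splicing, read 6165 and 5049 (−0.29), and 2053 and 2072 (0.01) at its second probe set. ST14, the membrane protease matriptase, read 2007 and 2309 (0.20) and 604 and 906 (0.59). OVOL1, a zinc-finger repressor that favours the epithelial state, read 581 and 569 (−0.03). Its dimmer probe set read 104 and 28.1 (−1.88), with the second value under the filter. The median over these 4 genes, 0.05, became −0.01 with the mean over probe sets.

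**Figure D4:**
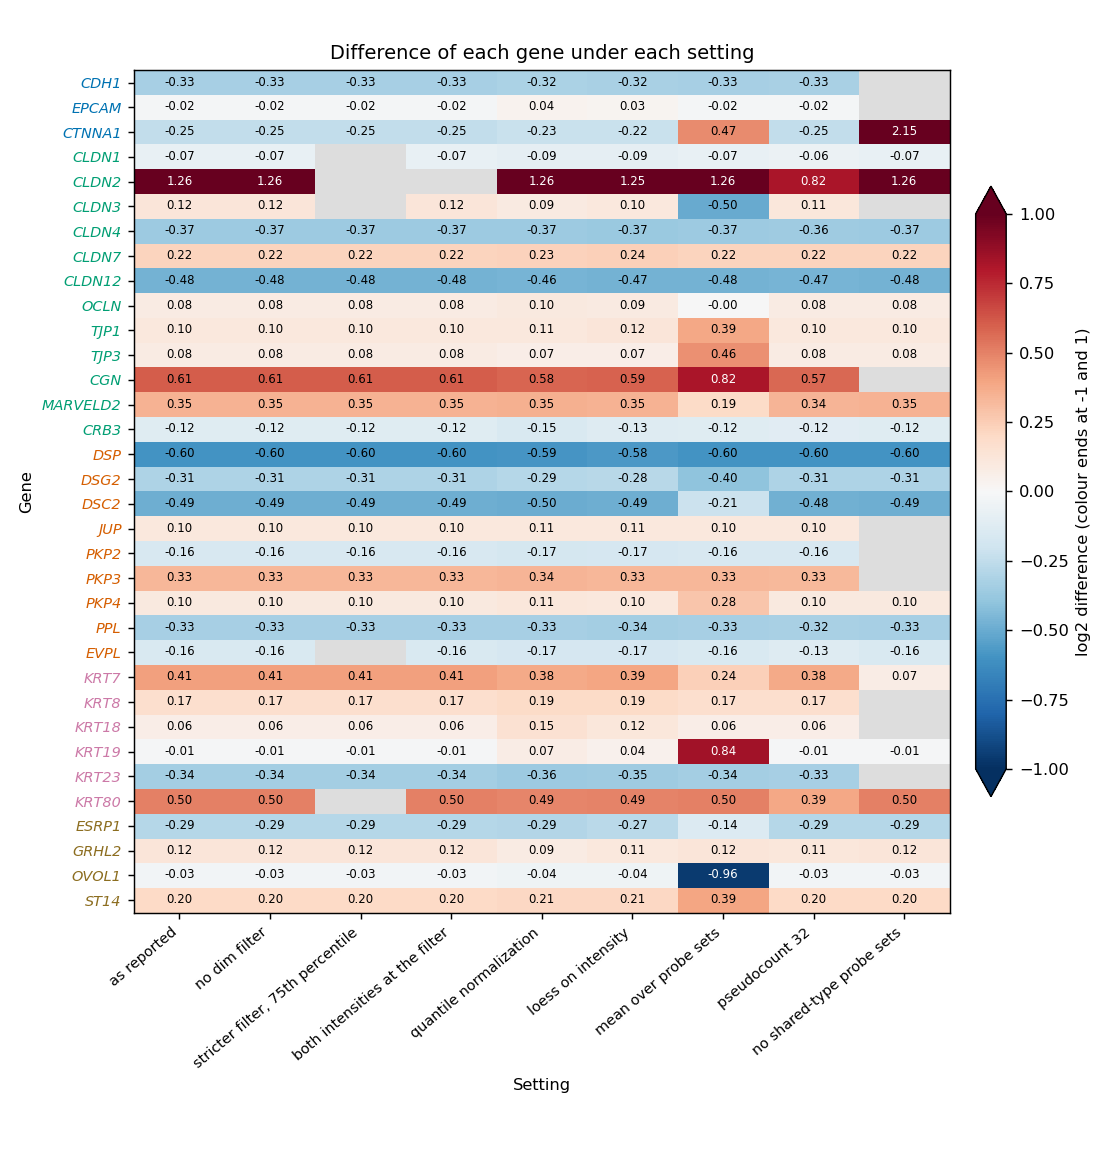
The log2 difference of each member (rows) in the setting reported here and in the 8 alternatives (columns), with red for higher and blue for lower on the array labelled HCT116-CPEB4 and grey where the setting leaves the gene without a value; colours end at −1 and 1. Rows such as DSP, CLDN12 and MARVELD2 keep one colour, while CTNNA1, CLDN3 and KRT19 turn when probe sets are averaged.

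Other genes of the same structures were read from lists by function. Of 15 further adherens junction genes, 10 lay above 0 and 5 below (50.1% and 49.9% of all genes), with a median of 0.14. By 0.5 or more, 4 were higher and 1 was lower (10.1% and 10.3% of all genes). ARVCF, a relative of p120 catenin, read 138 and 259 (0.91). LIMD1, a LIM protein at these junctions, read 1062 and 1723 (0.70), but only 0.22 and 0.06 at its other kept probe sets. P-cadherin, CDH3, read 3784 and 2367 (−0.68), and vinculin, VCL, read 6751 and 5768 (−0.23). Both classical cadherins, CDH1 and CDH3, were therefore lower, while beta-catenin, CTNNB1, read 15353 and 14219 (−0.11).

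Of 23 measured further tight junction and polarity genes, 9 lay above 0 and 14 below (50.1% and 49.9% of all genes), with a median of −0.09. By 0.5 or more, 2 were higher and 1 was lower (10.1% and 10.3% of all genes). The extremes were dim, and each kept probe set of CLDN11 and CLDN19 passed the filter through 1 array only, which fixed its sign. CLDN11 read 45.1 and 81.1 (0.85), CLDN9 read 62.0 and 89.6 (0.53), and CLDN19 read 130 and 55.4 (−1.23), and 0.80 at the second kept probe set. The polarity kinase PRKCI read 2356 and 1744 (−0.43). In the further desmosome list 2 of 6 genes were measured, PERP at 17875 and 14967 (−0.26) and DSC3 at 264 and 285 (0.11). The skin desmosomal genes DSG1, DSG3, DSC1 and PKP1 were under the filter on both arrays.

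Of 21 further keratins 6 were measured, 3 above 0 and 3 below (median −0.02). KRT15, a keratin of basal and progenitor cells, read 1543 and 889 (−0.80), and KRT20, a marker of differentiated colonocytes, read 216 and 163 (−0.41). KRT9 read 93.9 and 152 (0.69). KRT3, which passed the filter only through the array labelled HCT116-CPEB4, read 42.7 and 94.8 (1.15). Gap junction genes (6 of 9 measured, with the pannexins PANX1 and PANX2 placed here by the list) had a median of 0.28. With both arrays at the filter it was 0.064, and under the stricter filter −0.055. GJC1 (−0.18) and GJB2 (−0.06) were at the low end, and the dim PANX2 (50.2 and 134, 1.41) and GJD3 (45.7 and 83.5, 0.87) at the high end. PANX2 and GJD3 passed the filter only through the array labelled HCT116-CPEB4, which fixed their signs.

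Further epithelial regulators (13 of 14 measured) had a median of 0.01, with 7 above 0 and 6 below. The protease PRSS8, prostasin, which acts with matriptase, read 369 and 488 (0.40). Of the inhibitors of both proteases, SPINT1 read 873 and 1212 (0.47), but 210 and 201 (−0.06) at its other kept probe set. SPINT2 read 8886 and 6795 (−0.39, named outside the rule for extremes). The Grainyhead-like factor GRHL3 read 129 and 4.21 (−4.94) at its only probe set, under the filter on the second array. EHF, an ETS factor of epithelia, read 5643 and 4126 (−0.45), with its 6 kept probe sets between −1.71 and 0.92.

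Mesenchymal regulators and markers, which rise when epithelial cells lose their junctions, lay below 0 in 7 of 9 measured cases (49.9% of all genes). Their median was −0.29, and −0.23 with both arrays at the filter. FOXC2, SPARC and SNAI1 passed the filter only through HCT116-GFP, and MMP2 only through the other sample, which fixed their signs. FOXC2 read 68.5 and 15.3 (−2.16), SPARC 137 and 47.7 (−1.52) and MMP2 23.0 and 65.0 (2.82-fold), each with 1 array under the filter. SNAI2, of the same family as SNAI1, read 88.0 and 103 (0.23). ZEB1 and SNAI1 were named outside the rule, as the repressors given above for the E-box letters. Whether other genes of the list bind these letters was not considered. ZEB1 read 241 and 138 (−0.81), with 0.09 at its other kept probe set. SNAI1 read 65.7 and 48.8 (−0.43), with the second value under the filter. Of the 9 genes, 1 was higher and 2 were lower by 2-fold or more, beside 3.55% and 3.85% of all genes, and each of these 3 had an array under the filter.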

How the data were processed

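Each culture was measured on 1 array, and the deposited table, taken as the authors gave it, holds 1 linear intensity for each of 54675 probe sets and array. The submitters' processing notes name Partek, with no version or role; for summarisation, correction and scaling the sources used here give nothing. The 2% trimmed mean is 500.1 on both arrays, so they share an overall level. Medians were 60.6 and 61.1.

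Groups came from sample titles, and 0 columns were left unused. Of the probe sets, 41097 had 1 gene symbol, 1801 several and 11777 none in the platform annotation; 41043 of those with 1 gene were matched by Entrez identifier to RefSeq (GRCh38.p14) for current symbols. Probe sets with several genes or none, and manufacturer's controls, were left out.

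The log2 was taken without a pseudocount. The rules were size thresholds (2-fold, and 0.5 on the log2 scale), not tests. The steps were tested on simulated data, with planted changes larger than 2-fold and the same small noise at every intensity. That run checked the 2-fold rule only, and does not bear on the 0.5 mark or on noise at dim probe sets. Alternatives were no dim filter, the 75th percentile (377), both arrays at the filter, quantile normalization, loess (span 0.3), the mean over probe sets, omission of probe sets ending in _s_at, _x_at or _a_at, and a pseudocount of 32. Python 3.11.15, pandas 2.3.3, numpy 2.4.6 and statsmodels 0.14.6 were used.

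Named genes are all members, with every probe set where the difference reached 0.5 or kept probe sets disagreed in sign, and the 2 highest and 2 lowest genes of each further list with 5 or more measured; others were chosen after their values were seen. Members and lists were chosen with earlier results of these data known.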

Additional observations from a re-analysis of the deposited data

How the results depend on the processing

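Of the 34 members, 29 kept one sign in every alternative that gave them a value, 15 above 0 and 14 below. The exceptions were EPCAM, CTNNA1, CLDN3, OCLN and KRT19. Of 256 member values under alternatives, 246 moved by less than 0.27, the median gap between the 2 brightest probe sets of a gene. CLDN2, the 1 member past 2-fold, kept its sign, but no setting could exchange its only probe set. CTNNA1 went from −0.25 to 2.15 without probe sets ending in _s_at, _x_at or _a_at. A setting often leaves a gene's probe set as it was, and 138 of the 256 values were identical to those reported. The set's median ran from −0.01 (stricter filter, and both arrays at the filter) to 0.07 (quantile normalization).

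The count of members higher by 2-fold or more, 1, was 0 under the stricter filter, with both arrays at the filter and with the pseudocount, and 2 without probe sets ending in _s_at, _x_at or _a_at. The count higher by 0.5 or more, 3, was 1 under the stricter filter, and the count lower, 1, was 3 with the mean over probe sets. With that mean the medians were −0.019 for adherens junction genes, 0.31 for further adherens junction genes, −0.31 for further desmosome genes and −0.16 for further keratins. Without the _s_at, _x_at and _a_at probe sets they were 2.15 for adherens junction genes (CTNNA1 alone, at a dim probe set), −0.32 for desmosome genes, 0.084 for further tight junction genes, −0.23 for further desmosome genes and −0.32 for further keratins. Under the stricter filter they were 0.021 for further adherens junction genes, −0.26 for both further desmosome genes and further keratins, and −0.055 for gap junction genes. With no dim filter they were −0.37 for further desmosome genes, −0.95 for further keratins and 0.064 for gap junction genes, which were also at 0.064 with both arrays at the filter.

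No paired analysis was possible because each group has 1 array. The number of arrays limits every value, and signal over background limits CLDN2, KRT80, EVPL, CLDN1 and the dim probe sets most.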

Other observations

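Several members lie next to one another or next to a related gene in the order of protein-coding genes of GRCh38.p14. In 7 of 10 such adjacent pairs with at least 1 member both genes had the same sign, beside 51.0% of 8746 adjacent measured pairs in all. The cadherin pair CDH3 and CDH1 on chromosome 16 was lower at both genes (−0.68 and −0.33), and so were KRT20 and KRT23 on chromosome 17 (−0.41 and −0.34). KRT80 and KRT7 on chromosome 12 were higher at both (0.50 and 0.41), as were KRT8 and KRT18 (0.17 and 0.06) and, on chromosome 5, MARVELD2 and OCLN (0.35 and 0.08). KRT15 and KRT19 (−0.80 and −0.01) and CLDN16 and CLDN1 (−0.20 and −0.07) also shared a sign. The pairs CLDN3 and CLDN4 on chromosome 7 (0.12 and −0.37), DSC3 and DSC2 on chromosome 18 (0.11 and −0.49) and KRT19 and KRT9 on chromosome 17 (−0.01 and 0.69) had opposite signs. With 10 pairs, some sharing a gene, this is a description only.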
